A study of Mus musculus with 36 samples.

Results

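Gfi1 and Gfi1b encode a pair of closely related zinc finger repressors of blood formation, and accessible chromatin around both genes was followed across hematopoietic stem and progenitor cells of young and aged mice with ATAC-seq, a method that marks open DNA through the insertions of a transposase. Peaks of all 36 libraries that overlapped by 1 bp or more were merged into 105005 regions. A region was kept when the protein-coding transcription start site (TSS) nearest to its centre was that of a member, or when its centre lay within 50 kb of a member's TSS. These rules, which used position only, gave 27 regions, 17 for Gfi1 on chromosome 5 and 10 for Gfi1b on chromosome 2 (build mm10). All 17 Gfi1 regions were nearest to Gfi1, whereas 3 of the 10 Gfi1b regions were nearest to Gfi1b and the other 7 entered only through the window.

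The study sorted 8 fractions from bone marrow of C57BL/6 mice at 10 weeks (young) and 20 months (aged), with no genetic change or treatment in either group. Lineage-negative Sca-1+ c-kit+ cells were split into hematopoietic stem cells (HSC, CD34- CD150+ CD48- Flt3-) and the multipotent progenitors MPP1 (CD34+ CD150+ CD48- Flt3-), MPP2 (CD34+ CD150+ CD48+ Flt3-), MPP3 (CD34+ CD150- CD48+ Flt3-) and MPP4 (CD34+ CD150- CD48+ Flt3+). The Sca-1- c-kit+ cells gave granulocyte-macrophage progenitors (GMP, FcgR+ CD34+) and megakaryocyte-erythrocyte progenitors (MEP, FcgR- CD34-), and cells positive for the IL-7 receptor (written as IL-7 in the labels) with low Sca-1 and c-kit gave common lymphoid progenitors (CLP). HSC had 4 libraries at each age and every other fraction had 2, each from 20000 sorted cells. HSC replicates 3 and 4 of both ages carry deposited names without the running number of all other libraries, so they may come from a second experiment, and no label gives a batch. Marrow was pooled across mice and sorted in duplicate, so p-values measure the spread between sorted samples, which may be smaller than the spread between animals. Libraries of the same age may share a pool of marrow. The tests among fractions treat them as independent, so their p-values can be too small.

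Both proteins bind DNA through C-terminal zinc fingers and silence genes through an N-terminal SNAG domain that recruits the histone demethylase Kdm1a and the Rcor corepressors. Gfi1 is known for its part in neutrophil and lymphoid development and in holding stem cells in quiescence, and Gfi1b for its part in erythroid and megakaryocytic cells. Both factors recognise the same core letters, AATC, and each is known to repress its own gene and that of the other.

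For each library a region was either called or not, and a called region was given the highest fold enrichment of its peaks, which is the read pileup at the summit relative to the local background set by MACS2. Since that background is local, the value is a measure of how far a summit stands above its surroundings and not of total accessibility. Libraries held 27087 to 40157 peaks outside GMP and MEP, 52576 to 63288 in GMP and 9581 to 11041 in MEP. The median fold enrichment of called regions was 10.2 to 10.8 in GMP libraries and 8.01 to 8.95 in HSC, MPP and CLP libraries. Higher values in GMP were thus common over the catalogue. The share of all regions with GMP above every other library was not counted. The study's methods state that reads were subsampled to equal depth, and the files hold no read totals. A stand-in for depth, the background per base of weak peaks, lay at 0.999 to 1.10 times the median library outside MEP and at 1.54 to 1.60 times in the 4 MEP libraries, which had the fewest peaks. Of the GMP markers whose TSS was used to check the labels, Elane, which encodes the neutrophil granule protease, was called in all 4 GMP libraries and in no other and Cebpe in 3 GMP libraries and no other, whereas Mpo was called in the 4 GMP libraries and 1 MPP3 library, Ctsg in the 4 GMP libraries, 1 MPP3 and 1 MPP4 library, and Prtn3 in none. Of the CLP markers, Rag1, of lymphocyte receptor recombination, was called in 2 CLP libraries and no other. The other CLP markers did not single out CLP, since Il7r was called in 4 libraries each of CLP, GMP and MPP4, Ebf1 in 29 libraries with all 8 of HSC among them, and Dntt and Cd79a in none. Of the HSC markers, Hlf and Meis1 were called in all 8 HSC libraries but in 33 and 31 libraries in all, Procr, a stem cell surface receptor, in 4 HSC, 3 GMP and 2 MPP3 libraries, Hoxa9 in 3 HSC, 4 GMP and 2 MPP3 libraries, and Mecom, a stem cell transcription factor, in no HSC library and in 11 others, so that none singled out HSC. Of the MEP markers, Gata1, Klf1 and Epor had no region over their TSS in any library and Itga2b had none in MEP, so that the MEP label could not be checked in this way.

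Promoters of the members are shown first, because these are the sequences on which autoregulation has been described, with the letters AATCA (the GFI core and its 3' neighbour) and GATAA (the GATA core) in capitals on either strand. Each holds the 250 bases before the RefSeq start (GRCm38.p6, the assembly of mm10), read 5' to 3' on the strand of the gene.
Gfi1 promoter, chr5:107725806-107726055, minus strand: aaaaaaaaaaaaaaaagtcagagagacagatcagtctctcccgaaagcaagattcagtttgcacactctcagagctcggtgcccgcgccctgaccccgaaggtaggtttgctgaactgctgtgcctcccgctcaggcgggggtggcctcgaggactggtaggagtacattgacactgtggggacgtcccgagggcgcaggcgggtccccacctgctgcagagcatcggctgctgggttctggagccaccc
Gfi1b promoter, chr2:28621983-28622232, minus strand: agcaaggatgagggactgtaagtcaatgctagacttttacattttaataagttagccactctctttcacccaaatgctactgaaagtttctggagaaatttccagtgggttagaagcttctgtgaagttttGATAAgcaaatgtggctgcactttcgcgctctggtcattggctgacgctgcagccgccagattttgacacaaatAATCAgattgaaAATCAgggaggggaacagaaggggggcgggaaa
The Gfi1b promoter held AATCA at positions 206 and 218 of 250 and GATAA at position 132, counted from the 5' end of the printed run. The 250 bases of the Gfi1 promoter held neither, but held GATT, the reverse of the shorter core AATC. Only AATCA was counted and capitalised here and in the windows below, so AATC before another letter is not marked. AATCA on either strand stood in 33.7% of 32841 RefSeq promoter windows of this length and GATAA in 22.6%.

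The distal regions that carried the comparisons among fractions are shown as 201 bases centred on the median summit, again on the minus strand, with the same letters in capitals. The Gfi1 regions at -33.5 kb and -23.9 kb changed in opposite directions between HSC and GMP, the Gfi1b region at +30.3 kb was strongest in GMP, and the Gfi1b region at +23.7 kb was called only in HSC and MPPs.
Gfi1 -33.5 kb, chr5:107759202-107759402, minus strand: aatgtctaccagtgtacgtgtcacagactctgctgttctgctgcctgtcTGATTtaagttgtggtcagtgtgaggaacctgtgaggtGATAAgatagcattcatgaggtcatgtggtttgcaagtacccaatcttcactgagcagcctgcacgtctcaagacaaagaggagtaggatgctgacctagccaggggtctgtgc
Gfi1 -23.9 kb, chr5:107749652-107749852, minus strand: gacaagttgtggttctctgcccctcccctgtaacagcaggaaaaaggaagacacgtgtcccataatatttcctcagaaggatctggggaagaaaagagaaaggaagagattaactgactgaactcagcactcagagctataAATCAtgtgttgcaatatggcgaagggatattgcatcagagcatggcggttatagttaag
Gfi1b +30.3 kb, chr2:28591534-28591734, minus strand: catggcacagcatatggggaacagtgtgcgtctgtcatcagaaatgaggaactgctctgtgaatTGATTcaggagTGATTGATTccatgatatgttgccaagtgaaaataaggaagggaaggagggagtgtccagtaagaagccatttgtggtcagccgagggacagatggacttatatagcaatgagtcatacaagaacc
Gfi1b +23.7 kb, chr2:28598187-28598387, minus strand: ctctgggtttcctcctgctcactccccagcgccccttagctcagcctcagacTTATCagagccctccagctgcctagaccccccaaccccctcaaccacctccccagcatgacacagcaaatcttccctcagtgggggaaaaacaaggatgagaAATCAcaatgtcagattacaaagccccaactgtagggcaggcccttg
The -33.5 kb window held TGATT, the reverse of AATCA, at position 50 and GATAA at position 88, and the -23.9 kb window held AATCA at position 142 with 3 copies of the ETS core GGAAG. The +30.3 kb window held TGATT at positions 65, 76 and 80, and the last pair overlapped by a single base. The +23.7 kb window held TTATC, the reverse of GATAA, 9 bases from an E-box of the form CAGNTG, and the neighbouring +22.6 kb window held the same pair 8 bases apart.

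Across the 27 summit windows, AATCA was found on either strand in 12 (44.4%), against 26.9% of 104815 windows of the same length over the whole catalogue. The corresponding shares were 33.3% against 21.2% for GATAA, 70.4% against 69.2% for GGAAG, 33.3% against 25.6% for the RUNX letters TGTGGT, 11.1% against 13.2% for the C/EBP letters TTGCNNAA and 63.0% against 43.5% for CAGNTG. These are counts of letters, chosen after the regions were known, and a match is not a bound site.

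The regions spread from -51.2 to +47.2 kb of the Gfi1 TSS and from -19.1 to +39.0 kb of the Gfi1b TSS, with negative values upstream. Both genes lie on the minus strand, and distances run from their outermost start, at 107725805 on chromosome 5 for Gfi1 and at 28621982 on chromosome 2 for Gfi1b. The 6 Gfi1 regions upstream of the promoter all lay in introns of Evi5, the neighbouring gene. Downstream of the gene body the Gfi1 regions were intergenic or lay in the noncoding genes 4930428O21Rik, 5830411K02Rik and Gm26692. Of the 10 Gfi1b regions, the TSS region covered the 5' untranslated part of Gfi1b and those at +3.1 and +4.9 kb lay in Gfi1b introns. The centre of that at +39.0 kb lay on coding sequence of Gtf3c5 and the other 6 had intergenic centres. All these places were read at region centres, and starts of neighbouring genes inside a region were not looked for. The -19.1 kb region was nearest to Tsc1 and the +39.0 kb region to Gtf3c5. Whether they are promoters of these neighbours was not tested. The nearest region outside the rule lay -63.85 kb from Gfi1, was called in 1 library and reached a fold enrichment of 7.34, whereas the nearest one downstream of Gfi1b lay at +74.03 kb, was called in 7 libraries and reached 13.5. On the opposite sides, the nearest outside lay at +76.81 kb of Gfi1 (1 library, 6.603) and -76.72 kb of Gfi1b (9 libraries, 16.3). Just inside the rule, the outermost Gfi1 regions at -51.2 and +47.2 kb were called in 4 and 2 libraries and reached 11.3 and 7.39, and the outermost Gfi1b regions at -19.1 and +39.0 kb were called in 29 and 26 and reached 19.4 and 12.6. No region was called between +4.9 and +19.6 kb of Gfi1b.

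No member was called in all 36 libraries. The widest use was 33 libraries, at Gfi1 -33.5 kb, and 15 of the 27 were called in at least 9. Of the 17 Gfi1 regions GMP libraries held 13 to 15, more than any other library, and the rest held 1 to 8. Of the 10 Gfi1b regions GMP libraries held 6 or 7, which overlapped MPP1 and MPP2 (4 to 6 each), MPP3 (5 or 6) and MPP4 (3 to 6) and lay above CLP (2 to 4). HSC libraries held 4 to 6 Gfi1 regions and 0 to 5 Gfi1b regions, with means of 2.5 Gfi1b regions against 5.25 in MPP1 and MPP2 and 5.75 in MPP3. Every MEP library held 1 Gfi1 region, and MEP libraries held 0 to 3 Gfi1b regions. Over the whole catalogue 48.4% to 58.5% of regions were called in a GMP library, 25.4% to 35.6% in an HSC library, 24.97% to 36.8% in an MPP1, MPP2 or MPP3 library, 30.8% to 32.02% in an MPP4 library, 25.05% to 31.7% in a CLP library and 8.85% to 10.2% in a MEP library. GMP lay above and MEP below the other fractions in the catalogue, as in the Gfi1 counts, and HSC overlapped MPP1, MPP2 and MPP3 in both the Gfi1b counts and the catalogue. The heat map of fold enrichment by library shows the block of regions that belonged to GMP.

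**Figure D1:**
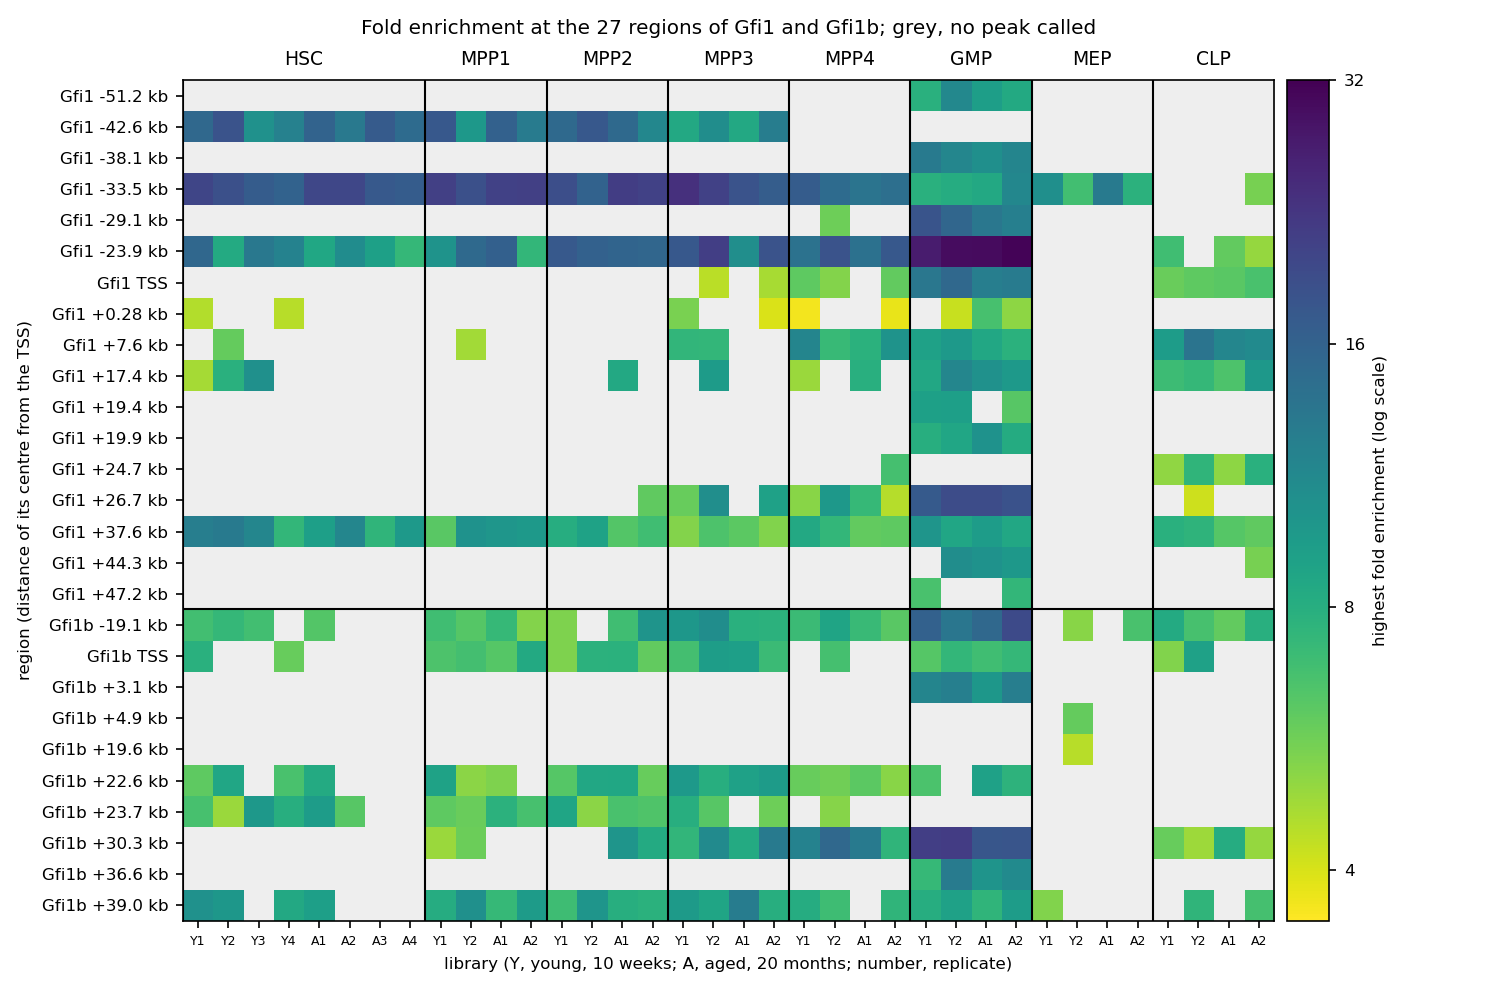
Highest fold enrichment (colour, log scale) of each of the 27 regions (rows, by distance of the centre from the TSS) in each of the 36 libraries (columns, by fraction, age and replicate), with grey where no peak was called. The Gfi1 region at -33.5 kb ran through 33 libraries, and 5 regions were filled in the 4 GMP libraries and in no other.

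The region at Gfi1 -33.5 kb (chr5:107759054-107759600, in an intron of Evi5) had the highest fold enrichment of all members in each HSC library. Its fold enrichment was 20.2, 18.6, 16.8 and 15.98 in young HSC and 20.0, 19.9, 17.2 and 16.8 in aged HSC. The 2 ages overlapped fully. At both ages replicates 1 and 2 (18.6 to 20.2) lay above replicates 3 and 4 (15.98 to 17.2), so the spread within HSC holds this step. Similar values were found in MPP1 (21.003 and 18.6 young, 20.9 and 21.05 aged), MPP2 (18.8 and 15.99 young, 21.4 and 20.9 aged) and MPP3 (23.5 and 20.9 young, 18.1 and 16.6 aged), and lower in MPP4 (16.8 and 14.8 young, 13.7 and 14.3 aged). GMP gave 7.87 and 8.12 in young and 8.43 and 11.5 in aged libraries, below every HSC and MPP library. MEP gave 10.6 and 6.83 in young and 12.96 and 7.69 in aged libraries, and it was the only member called in all 4 MEP libraries. CLP had a single call, of 5.50, in 1 aged library.

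The summit of the -33.5 kb region stayed in place while its height changed. Its median summit lay -33494 bp from the TSS in HSC and -33500 bp in GMP. Within each library its highest summit ranked between the 93.7th and 98.7th percentile of all listed summits in HSC and between the 32.3rd and 60.8th percentile in GMP. The pileup solved from the deposited fold enrichment and p-value was 63 to 113 reads in HSC and 24 to 39 reads in GMP.

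The region at Gfi1 -23.9 kb (chr5:107749457-107749976), also in an Evi5 intron, had the reverse order. GMP gave 27.1 and 29.9 in young and 30.1 and 31.3 in aged libraries, which were the 4 highest values of any member in any library. HSC gave 15.3, 8.26, 13.2 and 11.9 in young and 8.60, 10.9, 9.09 and 7.30 in aged libraries. MPP2 lay between, at 17.2 and 16.1 in young and 15.6 and 15.5 in aged libraries, and MPP4 gave 13.9 and 18.2 in young and 14.1 and 17.5 in aged libraries. MPP1 (10.2 and 14.96 young, 16.2 and 7.39 aged) and MPP3 (17.4 and 21.2 young, 10.7 and 18.1 aged) varied more between replicates. The region was called in 3 CLP libraries, at 4.95 to 6.91, and in no MEP library.

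The ratio of the -23.9 kb value to the -33.5 kb value within each library was taken in the 6 fractions where all libraries had both. It was 0.430 to 0.786 in the 8 HSC libraries, with a median of 0.538, and 2.72 to 3.68 in the 4 GMP libraries, with a median of 3.51. MPP1 had a median of 0.630, MPP2 of 0.829, MPP3 of 0.878 and MPP4 of 1.12, each over 4 libraries. Of the CLP libraries 1 had both regions, with a ratio of 0.90, and MEP had none. The ratio was thus above 1 in no HSC or MPP1 library, and the number of libraries above 1 was 1 for MPP2, 2 for MPP3, 3 for MPP4 and 4 for GMP. It was computed after the values had been seen, and no test was made of it.

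The region at Gfi1 -42.6 kb (chr5:107768202-107768674) was called in all 20 libraries of HSC, MPP1, MPP2 and MPP3 and in none of the other 16. Its values were 15.2, 18.2, 10.5 and 12.1 in young HSC and 15.8, 13.05, 16.9 and 14.7 in aged HSC. MPP1 gave 17.3 and 9.87 in young and 16.1 and 12.8 in aged libraries, and MPP2 gave 15.05 and 17.4 in young and 15.03 and 11.5 in aged libraries. MPP3 was lower, at 8.41 and 10.8 in young and 8.45 and 12.5 in aged libraries. Its window held TTATC at positions 49 and 129, the reverse of GATAA.

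The other 3 upstream regions belonged to GMP. Those at -51.2 kb (7.87 and 11.3 young, 9.23 and 8.37 aged) and -38.1 kb (12.9 and 11.5 young, 10.6 and 11.6 aged) were called in the 4 GMP libraries and nowhere else. That at -29.1 kb reached 18.1 and 15.4 in young and 13.3 and 12.3 in aged GMP and was called in 1 young MPP4 library besides, at 5.71.

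The Gfi1 TSS region (chr5:107725800-107726325), which held the first base of the gene at its edge and covered an exon of the noncoding gene A430072P03Rik, was called in 13 libraries. GMP gave 13.3 and 15.1 in young and 12.5 and 12.8 in aged libraries, and CLP gave 5.82 and 6.05 in young and 6.15 and 6.63 in aged libraries. The GMP and CLP values did not overlap, and the median called region was also higher in GMP than in CLP. The TSS was also called in 3 MPP4 libraries, at 5.28 to 6.08, and in 2 MPP3 libraries, at 4.40 and 4.66. No call was made in the 8 HSC libraries or in the MPP1, MPP2 and MEP libraries, although the -33.5 kb region was called in every one of them. A missing call does not show closed chromatin, and 2 of the young HSC libraries had weak calls beside the start, at +0.28 kb. A second Gfi1 start, at 107724343, lay in no called region.

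Within the gene, the region at +7.6 kb (chr5:107717980-107718386, intron) was called in all 12 MPP4, GMP and CLP libraries. CLP gave 9.43 and 13.6 in young and 11.6 and 11.1 in aged libraries, MPP4 gave 11.7 and 7.18 in young and 7.79 and 10.2 in aged libraries and GMP gave 8.996 and 9.67 in young and 8.48 and 7.76 in aged libraries, so the 3 fractions overlapped. The other 4 calls were all in young libraries, in MPP3 (7.46 and 7.41), HSC replicate 2 (5.88) and MPP1 replicate 2 (4.76). The weak region at +0.28 kb, in an intron, was called in 9 libraries at 3.63 to 6.64, in 2 young HSC (4.51 and 4.44), 2 MPP3 (5.48 and 3.96), 2 MPP4 (3.63 and 3.77) and 3 GMP libraries (4.21, 6.64 and 5.11), and in no MPP1, MPP2, MEP or CLP library.

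Downstream, the region at +26.7 kb (chr5:107698834-107699398, over an exon of the noncoding gene 4930428O21Rik) gave 17.04 and 19.2 in young and 19.1 and 18.3 in aged GMP. Calls were also made in all 4 MPP4 libraries at 4.46 to 9.81, in 3 MPP3 libraries at 5.84 to 10.7, in 1 aged MPP2 library at 6.02 and in 1 young CLP library at 4.14. The GMP values lay above all of these, in libraries whose median called region was also higher. The neighbouring region at +24.7 kb was called in all 4 CLP libraries, at 5.07 and 7.54 in young and 5.11 and 7.85 in aged libraries, in 1 aged MPP4 library at 6.74, and in no GMP library. The region at +17.4 kb was called in all 4 GMP libraries (8.50 to 11.6), all 4 CLP libraries (6.48 to 9.82), 3 young HSC libraries (4.71, 7.86 and 10.5), 2 MPP4 libraries (4.89 and 7.93), 1 young MPP3 library (9.50) and 1 aged MPP2 library (8.41). The regions at +19.4 kb (9.09 and 9.18 young, 6.21 in 1 aged library), +19.9 kb (7.97 and 8.64 young, 10.4 and 8.18 aged) and +47.2 kb (6.59 in 1 young and 7.39 in 1 aged library) were called in GMP only. That at +44.3 kb was called in 3 GMP libraries (10.8 in 1 young, 10.3 and 9.85 aged) and in 1 aged CLP library (5.50).

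**Figure D2:**
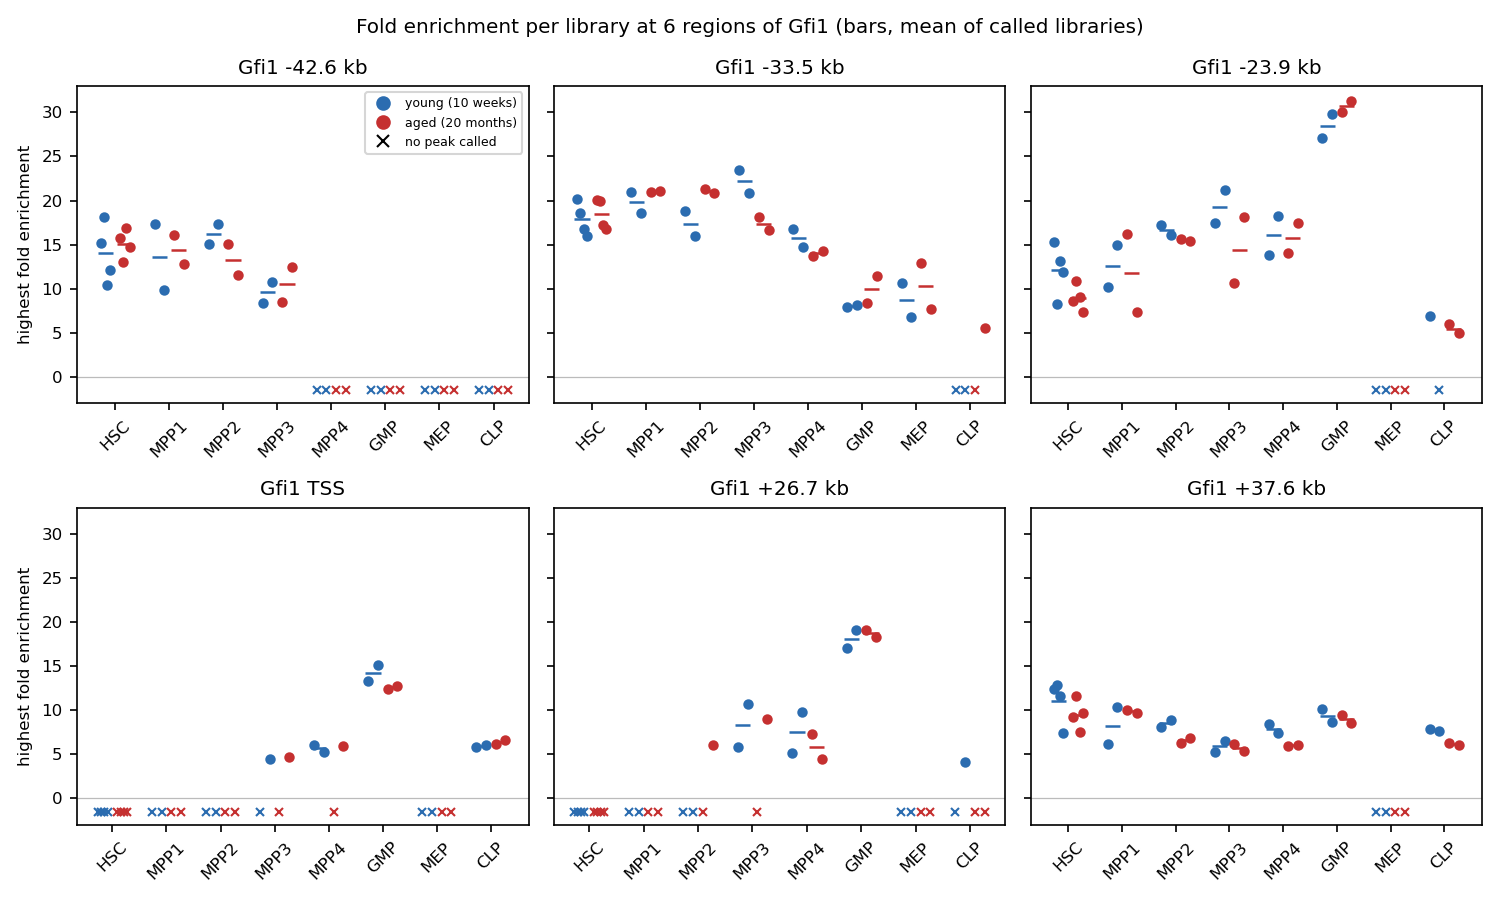
Highest fold enrichment per library at 6 Gfi1 regions (vertical axis), by fraction (horizontal axis), with young libraries in blue and aged libraries in red. Bars are means of called libraries and crosses below the line are libraries without a call. The -33.5 kb values fell from HSC to GMP while the -23.9 kb values rose to 27.1 to 31.3 in GMP, and the TSS was uncalled in every HSC library.

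The region at Gfi1 +37.6 kb (chr5:107687827-107688622, over the transcript 5830411K02Rik) was called in all 32 libraries outside MEP. HSC gave 12.4, 12.9, 11.6 and 7.40 in young and 9.18, 11.6, 7.52 and 9.70 in aged libraries, and MPP3 gave 5.29 to 6.48, below every HSC library. MPP1 gave 6.15 and 10.3 in young and 10.005 and 9.71 in aged libraries, MPP2 gave 8.06 and 8.93 in young and 6.33 and 6.89 in aged libraries and MPP4 gave 8.44 and 7.38 in young and 5.95 and 6.06 in aged libraries. GMP gave 8.50 to 10.1 and CLP 6.01 to 7.83, both overlapping HSC. The highest summit was not at the same place in all fractions. It lay 37420 to 37561 bp downstream of the TSS in the 8 HSC libraries and 37402 to 37717 bp in the 16 MPP libraries, but 37777 to 37866 bp in the 4 GMP libraries and 37761 to 37846 bp in the 4 CLP libraries. The positions of the highest summit in GMP and CLP therefore did not overlap those in HSC and MPPs. Lower summits did cross, since 8 of the 32 libraries listed several summits. Young HSC replicate 4 had a lower summit at 37797 bp (5.18) and young MPP3 replicate 2 at 37856 bp (5.63), both within the GMP range, aged MPP4 replicate 2 had one at 37764 bp (4.78), within the CLP range, and CLP had lower summits at 37425 bp (5.86, young replicate 2) and 37543 bp (5.21, aged replicate 2), both within the HSC range, and at 37264 bp (5.31, aged replicate 1). The 4 GMP libraries each listed 1 summit. The highest summits of HSC and GMP did not overlap in 19.3% of the 13884 regions called in all libraries of both, and in 2.33% they also had medians at least 200 bp apart, as here. Of the 3 members that could be compared in this way, those at -33.5 and -23.9 kb overlapped. The windows around both summits are shown because a comparison of heights at this region sets different bases against each other.
Gfi1 +37.6 kb at the HSC summit, chr5:107688196-107688396, minus strand: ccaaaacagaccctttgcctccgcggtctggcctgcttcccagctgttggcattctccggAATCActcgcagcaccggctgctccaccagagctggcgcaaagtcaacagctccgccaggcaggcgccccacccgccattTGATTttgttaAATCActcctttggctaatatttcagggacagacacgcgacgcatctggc
Gfi1 +37.6 kb at the GMP summit, chr5:107687909-107688109, minus strand: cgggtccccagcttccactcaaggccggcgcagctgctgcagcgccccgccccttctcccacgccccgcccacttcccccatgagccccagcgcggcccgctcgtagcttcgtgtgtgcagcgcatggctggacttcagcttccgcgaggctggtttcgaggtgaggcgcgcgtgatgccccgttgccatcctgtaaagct
The HSC window held AATCA or its reverse at positions 61, 141 and 152. The GMP window held none and had 3 copies of GGAAG or its reverse, against 1 in the HSC window.

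At Gfi1b the TSS region (chr2:28621728-28622125), which holds the AATCA pair of the printed promoter, was called in 21 libraries and was weak in all of them, between 5.32 and 9.31. All 4 libraries were called in MPP1 (6.501 and 6.79 young, 6.29 and 8.33 aged), MPP2 (5.37 and 7.72 young, 7.76 and 5.95 aged), MPP3 (6.77 and 9.31 young, 9.21 and 7.10 aged) and GMP (6.28 and 7.42 young, 6.89 and 7.32 aged). These 4 fractions overlapped. In HSC it was called in 2 young libraries, at 7.86 and 5.83, and in no aged library, in CLP in both young libraries, at 5.32 and 8.99, and in neither aged library, and in MPP4 in 1 young library at 6.72. No MEP library had a call.

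The pair of regions at +22.6 kb (chr2:28599114-28599731) and +23.7 kb (chr2:28597992-28598547), which hold the closely spaced GATA and E-box letters, differed in the fractions that called them. The +23.7 kb region was called in all 4 young HSC libraries, at 6.66, 4.90, 9.87 and 8.01, and in 2 aged ones, at 9.45 and 6.23. Further calls were in all 4 MPP1 libraries (5.83 to 7.72), all 4 MPP2 libraries (5.16 to 8.74), 3 MPP3 libraries (5.72 to 8.003) and 1 MPP4 library (5.23), and in no GMP, MEP or CLP library. The +22.6 kb region was called in 3 young HSC libraries, at 6.04, 8.62 and 6.62, in 1 aged HSC library, at 8.27, and in all 4 libraries of MPP2, MPP3 and MPP4, with 5.86 to 8.59 in MPP2, 9.78 and 7.98 in young and 9.02 and 9.53 in aged MPP3, and 5.17 to 6.10 in MPP4. Calls were made as well in 3 MPP1 libraries, at 5.15 to 8.92, in 3 GMP libraries, at 6.54 to 9.0005, and in no MEP or CLP library.

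The region at +30.3 kb (chr2:28591357-28591942, intergenic) held the highest value of any Gfi1b region, 21.5 in young GMP. Its aged GMP values lay below the 19.4 of 1 aged GMP library at -19.1 kb. GMP gave 21.2 and 21.5 in young and 17.7 and 17.9 in aged libraries. MPP4 gave 11.9 and 15.1 in young and 12.9 and 7.50 in aged libraries, MPP3 gave 7.43 and 11.1 in young and 8.29 and 12.9 in aged libraries, and CLP gave 5.85 and 4.85 in young and 8.10 and 4.95 in aged libraries. All GMP values lay above those of the other fractions, in libraries whose median called region was also higher (10.2 to 10.8 against 8.01 to 8.95). Both young and neither aged MPP1 libraries were called (4.88 and 5.75), both aged and neither young MPP2 libraries (10.1 and 8.29), and no HSC or MEP library. The +3.1 kb region, in an intron of Gfi1b (11.7 and 12.3 young, 9.93 and 12.5 aged), and the +36.6 kb region (7.28 and 12.7 young, 10.2 and 11.1 aged) were called in the 4 GMP libraries and in no other.

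The broad region at -19.1 kb (chr2:28640656-28641592, 937 bp, nearest to Tsc1) was called in 29 libraries. GMP gave 16.1 and 13.4 in young and 15.1 and 19.4 in aged libraries, above every other library, and the median called region was also highest in GMP. The ranges over the libraries called were 6.33 to 7.33 in 4 HSC libraries, 5.28 to 7.25 in 4 libraries of MPP1, 7.69 to 10.8 in 4 of MPP3, 5.37 to 10.2 in 3 of MPP2, 6.14 to 8.80 in 4 of MPP4 and 5.94 to 8.28 in 4 of CLP, and 2 MEP libraries gave 5.20 and 6.64. The +39.0 kb region, centred on coding sequence of Gtf3c5, was called in 26 libraries. Its ranges were 8.44 to 10.5 in 4 HSC libraries, 7.25 to 10.6 in 4 libraries of MPP1, 8.01 to 12.6 in 4 of MPP3, 6.99 to 10.1 in 4 of MPP2, 7.51 to 9.43 in 4 of GMP and 6.97 to 8.15 in 3 of MPP4, with 5.34 in 1 MEP library and 7.54 and 6.69 in 2 CLP libraries, so that called HSC values lay above those of MPP4 and both overlapped the other MPPs and GMP. The regions at +4.9 kb (5.89) and +19.6 kb (4.42) were each called in 1 library, both in young MEP replicate 2. As MEP libraries held 9581 to 11041 peaks, a missing call in MEP is weaker evidence of closed chromatin than one elsewhere.

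**Figure D3:**
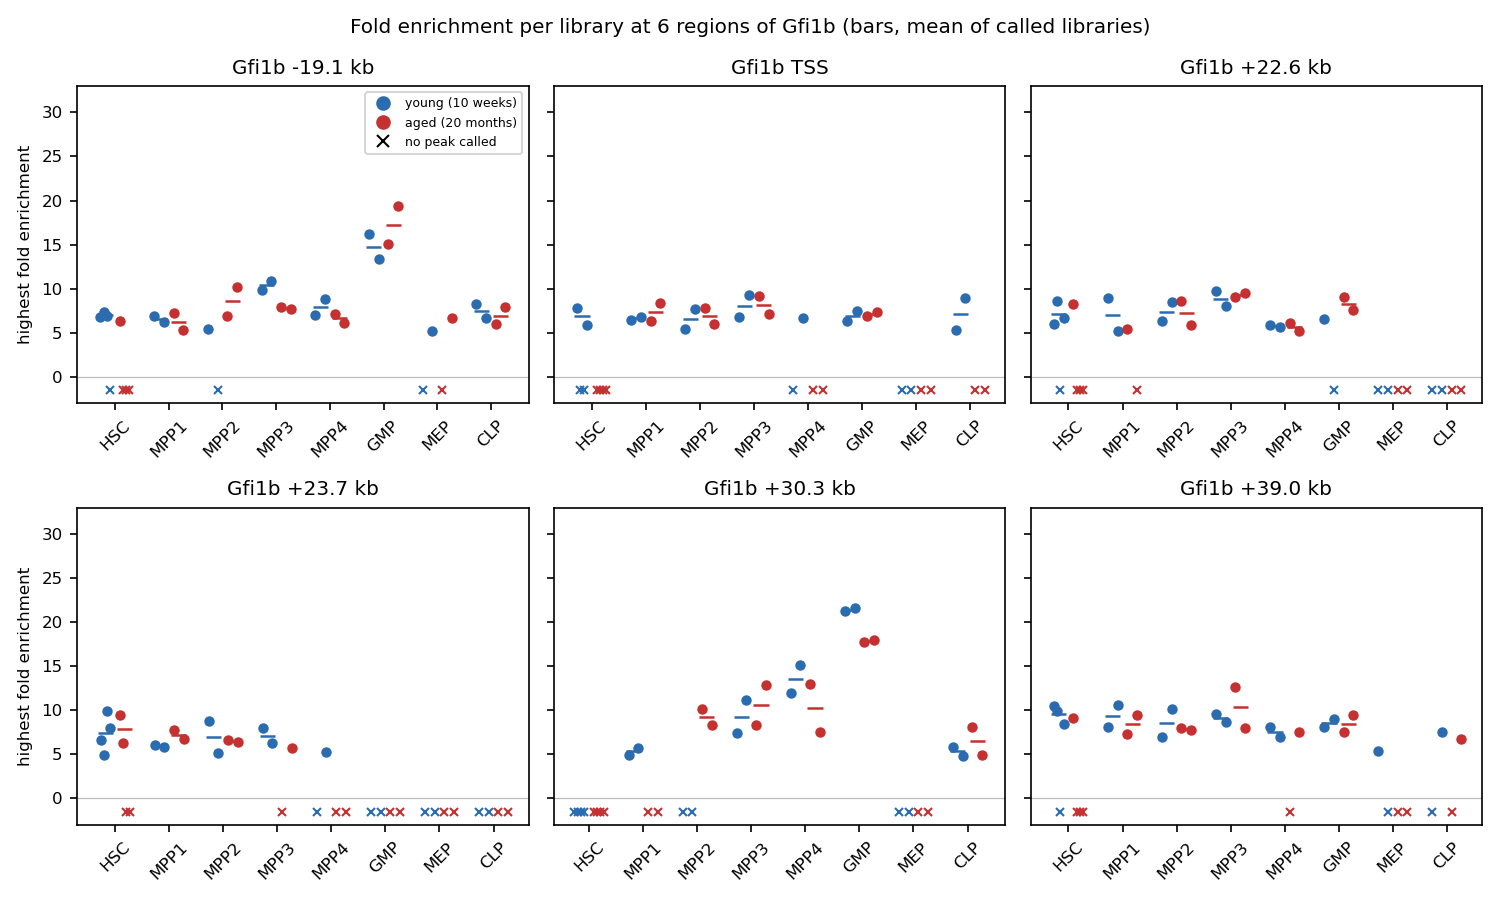
Highest fold enrichment per library at 6 Gfi1b regions (vertical axis), by fraction (horizontal axis), drawn as for Gfi1. At +30.3 kb the 4 GMP libraries sat between 17.7 and 21.5 above all others, and at +23.7 kb no GMP, MEP or CLP library was called.

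Whether calls differed among the 8 fractions was tested for each region by an exact test (Fisher-Freeman-Halton) with Benjamini-Hochberg adjustment over all 79066 regions tested, of which 67.2% passed at an adjusted p under 0.05. Of the 25 members that could be tested, 21 passed (84.0%), 15 of 17 for Gfi1 and 6 of 8 for Gfi1b. With most regions of the catalogue passing, this share is not particular to the members. The lowest adjusted p-values were 5.56e-06 at Gfi1 -42.6 kb, 8.46e-05 at Gfi1b +30.3 kb and 9.14e-05 at the Gfi1 TSS, and that of the Gfi1b TSS was 0.000926. The 4 that did not pass were Gfi1 +0.28 kb (0.0732), Gfi1 +47.2 kb (0.0852), Gfi1b -19.1 kb (0.116) and Gfi1b +39.0 kb (0.0713). Each of them passed under at least 1 alternative, as given with the effects of processing. Without the 4 GMP libraries, 12 of 16 members passed, against 50.7% of the 57105 regions then tested, and Gfi1 +17.4 kb no longer did (adjusted p = 0.105 by the same exact test). Of the members, 5 (18.5%) were called in all 4 GMP libraries and in no other, against 8.81% of the catalogue, and GMP libraries had the most peaks. The part of the peak number in this pattern was not tested.

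Heights were compared where a region was called in every library of both fractions, on log2 fold enrichment centred on the median of each library, by limma with age as a covariate. GMP minus HSC was -1.60 ± 0.114 (SE, n = 4 and 8; adjusted p = 1.74e-08) at -33.5 kb, 0.96 ± 0.164 (adjusted p = 0.000129) at -23.9 kb and -0.71 ± 0.140 (adjusted p = 0.000481) at +37.6 kb. Of all 13884 regions in that fit, 50.5% were called. The first 2 held their direction and their call without centring, at -1.03 and 1.52, whereas the value at +37.6 kb became -0.14 with an adjusted p of 0.411. Uncentred, the median region differed by 0.57 between GMP and HSC, so a centred difference is relative to that shift. At +37.6 kb the summits of the fractions also lay at different positions, as given above. With HSC replicates 1 and 2 alone, or 3 and 4 alone, the 3 values kept their calls and direction (-1.70 and -1.54, 0.96 and 0.92, and -0.87 and -0.59).

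The -23.9 kb region was also higher in 3 MPP fractions, each compared with the same HSC libraries. The difference was 0.65 ± 0.164 in MPP2 (adjusted p = 0.0310), 0.63 ± 0.169 in MPP3 (adjusted p = 0.0222) and 0.57 ± 0.173 in MPP4 (adjusted p = 0.0359), relative to HSC, by limma, and 0.13 ± 0.193 in MPP1, which did not pass (adjusted p = 0.868, 95% interval -0.28 to 0.53). With within-library percentiles in place of fold enrichment none of the 3 MPP calls passed (adjusted p = 0.144, 0.120 and 0.130 by limma). The MPP2 call was lost without either aged MPP2 library (adjusted p = 0.0879 and 0.104 by limma), young MPP2 replicate 1 (0.0626) or aged HSC replicate 4 (0.0557). That of MPP3 was lost without replicate 2 of young (0.0746) or aged (0.111) MPP3. The MPP4 call was lost without young MPP4 replicate 2 (0.0753), aged MPP4 replicate 1 (0.0913) or 2 (0.152), young HSC replicate 2 (0.0542), or aged HSC replicates 1 (0.0545), 3 (0.0552) or 4 (0.0633). With HSC replicates 1 and 2 alone none of the 3 passed by limma (adjusted p = 0.0790, 0.0711 and 0.0719), at differences of 0.66, 0.64 and 0.57. With replicates 3 and 4 alone MPP4 did not pass by limma (0.54, adjusted p = 0.0637). In GMP the adjusted p stayed at or under 0.00113 with any of its 12 libraries left out. The -42.6 kb region was lower in MPP3 (-0.58 ± 0.128, adjusted p = 0.00807), and did not pass in MPP1 or MPP2. The -33.5 kb region was lower in MPP4 by a small margin (-0.34 ± 0.108, adjusted p = 0.0442), a call lost without centring (-0.29, adjusted p = 0.125). It was lost as well without young MPP4 replicate 2 (0.152), either aged MPP4 library (0.127 and 0.125), any young HSC library (0.0513 to 0.0733), aged HSC replicates 1 (0.0688) or 2 (0.0720), or both HSC replicates 1 and 2 of each age (0.200). Over single libraries left out this difference ran from -0.40 to -0.29, and with HSC replicates 3 and 4 alone it was -0.27. The -33.5 kb region did not pass in MPP1, MPP2 or MPP3, with differences of 0.07 to 0.12 and 95% intervals between -0.17 and 0.35.

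The +37.6 kb region was lower than in HSC in MPP3 (-0.84 ± 0.149, adjusted p = 0.00180), MPP4 (-0.60 ± 0.141, adjusted p = 0.00791) and CLP (-0.56 ± 0.141, adjusted p = 0.00722), and did not pass in MPP2 (-0.43 ± 0.146, adjusted p = 0.110, or 0.0444 without young HSC replicate 4, and -0.76 with 0.00643 on pileup) or MPP1. With HSC replicates 3 and 4 alone the MPP4 and CLP values did not pass (-0.47 and -0.43, adjusted p = 0.0752 and 0.0764 by limma), and with replicates 1 and 2 alone that of MPP2 did (-0.58, adjusted p = 0.0499). Over all regions fitted against HSC, limma called 0.0539% for MPP1, 4.55% for MPP2, 11.5% for MPP3 and 13.4% for MPP4. The shares were 32.8% for MEP and 23.1% for CLP. The -33.5 kb region was the only one that could be compared in MEP. There the difference from HSC was -0.24 ± 0.140 (adjusted p = 0.194, 95% interval -0.53 to 0.05, and -0.40 with 0.0371 without aged MEP replicate 1), and GMP was lower than MEP by limma, at -1.37 ± 0.180 (adjusted p = 3.07e-05), where 49.4% of regions were called. The latter difference was -0.06 without centring (adjusted p = 0.754), since the median region differed by 1.31 between GMP and MEP before centring. Without centring MEP minus HSC was -0.97 (adjusted p = 5.94e-06).

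**Figure D4:**
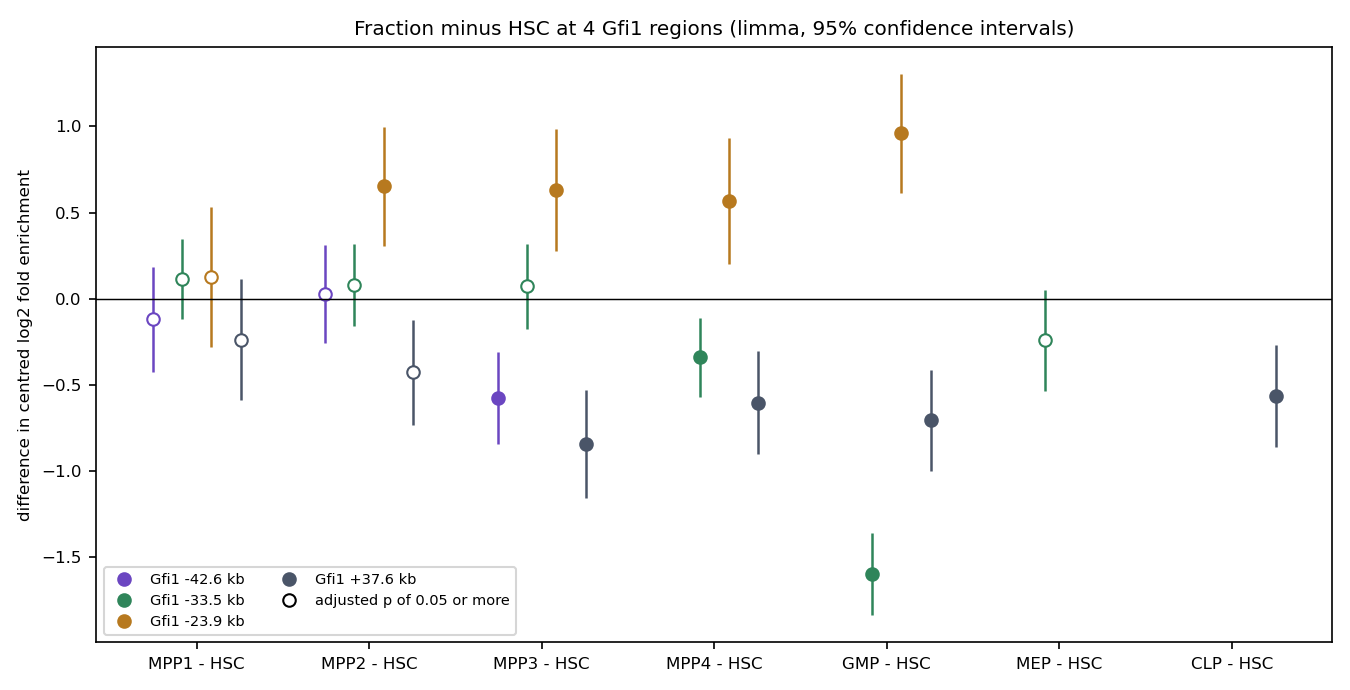
Difference in centred log2 fold enrichment between each fraction and HSC (vertical axis) at 4 Gfi1 regions, with 95% confidence intervals from limma. Filled points have an adjusted p under 0.05. The value at -23.9 kb was above 0 from MPP2 to GMP and the value at -33.5 kb fell to -1.60 in GMP.

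The effect of age was asked in the same 2 ways. For calls, an exact test stratified by fraction found none of 85292 regions at an adjusted p under 0.05 (0%), with 1.37% at an unadjusted p under 0.05. Of the 20 members that could be tested, 14 were called in fewer aged than young libraries, 4 in more and 2 in as many, against 41.4%, 41.8% and 16.8% of all regions tested, and all had an adjusted p of 1. The Gfi1b TSS was called in 13 young and 8 aged libraries (unadjusted exact p = 0.0357), and was the only member with an unadjusted p under 0.05. In HSC 2 of the 4 young libraries had this peak and none of the aged ones, and in CLP both young libraries had it and neither aged one.

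Calls of the members in HSC were counted per library. Young HSC held 5, 4, 2 and 4 of the 10 Gfi1b regions and aged HSC held 4, 1, 0 and 0, whereas Gfi1 regions numbered 6, 6, 5 and 5 in young and 4 in each aged library. The ages overlapped for Gfi1b, where aged HSC replicate 1 held 4 of the 5 calls of its group. They did not overlap for Gfi1, where the young libraries differed through calls at +0.28 kb (4.44 and 4.51), +7.6 kb (5.88) and +17.4 kb (4.71 to 10.5). All but the highest of these fold enrichments lay below the medians of the young HSC libraries (8.09 to 8.49). No test was made of these counts. The number of peaks was 31081 to 32185 in aged and 27856 to 38756 in young HSC. No member had calls throughout HSC at either age with none at the opposite age, against 0.43% of regions for aged only and 0.277% for young only, over the 51625 regions called in any HSC library. The nearest was Gfi1 +17.4 kb, with 3 young and 0 aged HSC calls. With 4 libraries a side, the exact test cannot go below 0.0286 for any single region in HSC.

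For height, aged minus young was fitted by limma in each fraction for regions called in all of its libraries, which gave 62 values over the members. None had an adjusted or an unadjusted p under 0.05, and 30 were above and 32 below 0, with a range of -0.42 to 0.32. In the whole catalogue no region passed in any of the 8 fits (0% each). The share of regions at an unadjusted p under 0.05 by limma ran from 4.1% in MPP3 to 9.06% in HSC. On pileup 108 regions passed in HSC, none of them a member. In HSC the difference was 0.15 ± 0.153 (SE, n = 4 and 4) at -42.6 kb, 0.06 ± 0.137 at -33.5 kb, -0.19 ± 0.178 at +37.6 kb and -0.40 ± 0.204 at -23.9 kb by limma, the last with an adjusted p of 0.585 and a 95% interval of -0.84 to 0.03. The GMP value at -23.9 kb was 0.07, with an interval of -0.32 to 0.47. Any difference inside its interval remained compatible with the values of these few libraries.

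**Figure D5:**
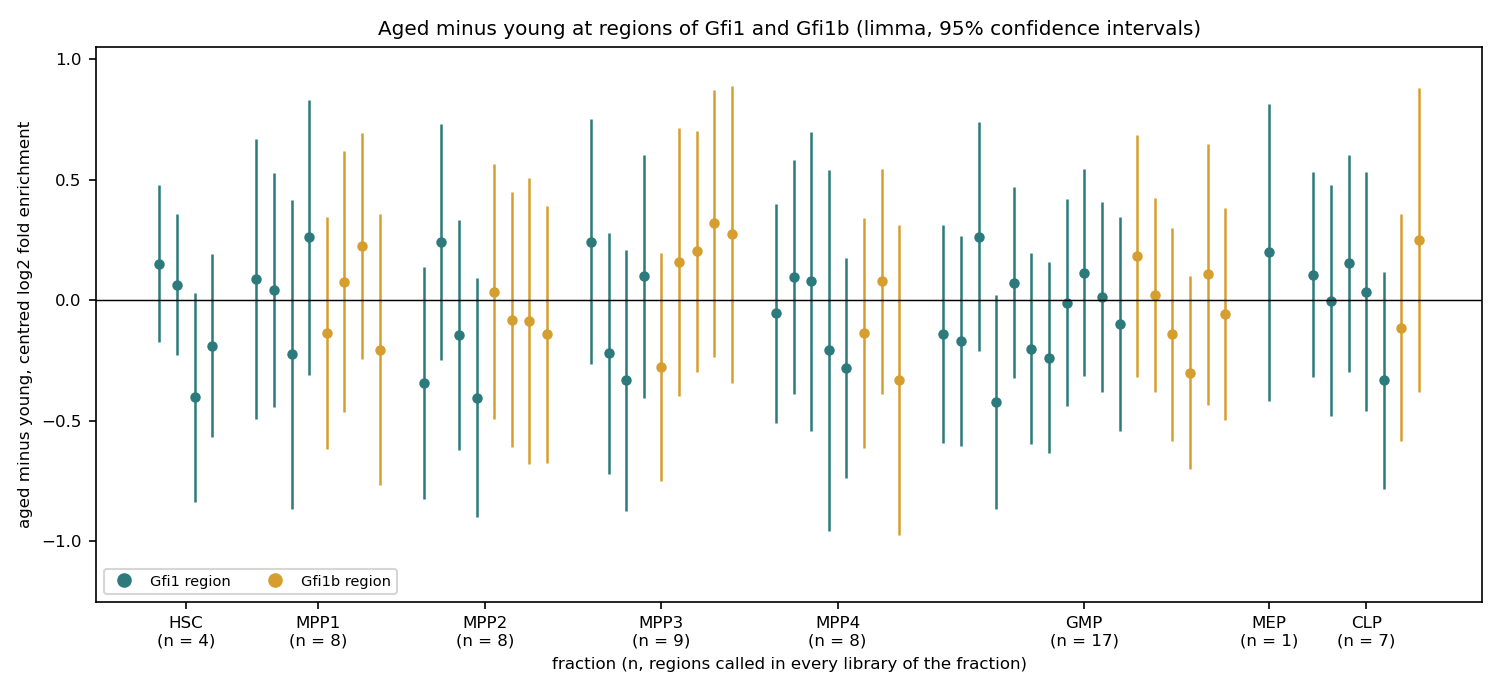
Aged minus young difference in centred log2 fold enrichment (vertical axis) for each member region called in every library of a fraction (horizontal axis, grouped by fraction), with 95% confidence intervals from limma. Every interval included 0.

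Partners, regulators and reported targets were followed at the TSS only, from lists of textbook genes. Of the 10 corepressor genes, 9 had a region over the TSS, and Rcor1, Hdac1, Hdac2 and Hmg20b were called in all 36 libraries. Kdm1a, the demethylase that SNAG recruits, was called in 28 (adjusted p = 0.0934 for fraction by the exact test). Rcor2 and Phf21a passed, 2 of the 4 that could be tested. Rcor2 was called in 6 HSC, 4 MPP1 and 1 MPP2 libraries and in no other, and Phf21a in 4 GMP and 2 HSC libraries. Of the 15 regulators, 11 had a TSS region and 6 of 8 tested passed, among them Lmo2 (14 libraries), Erg (20) and Cebpe (3, all GMP). Tal1 and Tcf3 were called in all 36. Of the 18 reported targets, all had a TSS region and 13 of 14 tested passed. Csf1r and Elane were called in GMP alone, Il7r, the interleukin receptor of lymphoid progenitors, in all 4 libraries of MPP4, GMP and CLP and in no other, and Egr1, Egr2 and Id2 in all 36. These shares stand beside the 67.2% of all regions. No gene of the 3 lists passed for age, of 5, 7 and 10 tested, with adjusted p-values from the exact test.

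Patterns like those of the 2 promoters were sought over the 16 groups of fraction and age, as Pearson's r of the group means of log2 fold enrichment with 1 in place of an uncalled value, against 11952 other genes whose TSS region was called in at least 9 libraries. For the Gfi1 TSS the 5 highest were Ptpro (0.975), Lmo2 (0.971), Lilr4b and Gm49339 (0.968 each, over the same region) and Foxp1 (0.964), all called in the 4 GMP and 4 CLP libraries and in no HSC library. For the Gfi1b TSS they were Jazf1 (0.909), Mpp6 (0.898), Uqcc2 (0.894), Ndufaf1 (0.884) and Cplx1 (0.882), all called in the 4 MPP1 and 4 MPP3 libraries. The groups share libraries' depth and the correlations are a description.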

How the data were processed

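ATAC-seq peak lists of 36 libraries were analysed, 1 file per library. Per the study's methods and the labels, the authors aligned 60-base reads to mm10 with Bowtie2, subsampled them with SAMtools to equal depth and called peaks per library with MACS2 2.2.6 at a q-value limit of 0.001. The deposited columns are a score, a fold enrichment (ratio of summit pileup to local background) and the −log10 p and −log10 q values. No read counts were used, so no count model was fitted, and depth per library is not known. Subsampling lowers the number of weak peaks, and the local background understates summits in broad open loci.

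Peaks overlapping by 1 bp or more were merged, distances were taken to GENCODE M21 protein-coding starts and the pileup was solved from fold enrichment and p (99.8% of entries, tolerance 0.002 in −log10 p). Calls were tested exactly and heights with limma 3.58.1 in R 4.3.3, on log2 values centred per library, with Benjamini-Hochberg adjustment over all regions. Python 3.11.15, numpy 2.4.6, scipy 1.17.1 and pandas 2.3.3 were used. Scripts were tested on simulated data. Libraries with most identical peaks shared 0.442% of intervals, so none was a duplicate. Values were given for each TSS region and each region called in at least 9 libraries or passing the fraction test, by library or as a range over a fraction, with the rest by counts and ranges. Alternatives were a −log10 q of at least 10, peaks covering 50% of a region, equal peak numbers within a fraction, summits within 250 bp, no centring, percentiles, pileup, a replicate block, HSC replicates 1 and 2 or 3 and 4 alone (their deposited names differ) and each library left out. The members and lists were chosen with earlier results of these data known, and the motifs after the regions were seen. Sequences come from RefSeq (GRCm38.p6). Some genes of the lists are not reported here by name.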

Additional observations from a re-analysis of the deposited data

How the results depend on the processing

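Fraction differences in height past the threshold numbered 12, with 10 without centring (3 lost: MPP4 at -33.5 kb, GMP at +37.6 kb and GMP minus MEP at -33.5 kb, and MEP minus HSC at -33.5 kb gained), 9 with within-library percentiles (the MPP2, MPP3 and MPP4 values at -23.9 kb lost), 14 with pileup (MPP2 at +37.6 kb and MEP minus HSC at -33.5 kb gained), and 3 where peaks had a −log10 q of at least 10, a setting that left fewer regions called in every library to fit. Leaving out each library in turn gave 10 to 13, and HSC replicates 1 and 2 or 3 and 4 alone, a setting chosen after seeing the data, gave 10 and 8. The fraction test on calls passed 21 members, 12 of 16 tested without the GMP libraries and 19 of 23 without the MEP libraries (55.1% of all regions then tested), 2 settings chosen after seeing the data, and 21 to 22 with single libraries left out, and 20 to 22 under the other settings. The Gfi1b TSS did not pass when a call needed 50% of the region covered (adjusted p = 0.0943, exact test), nor Gfi1b +23.7 kb (0.387, and 0.120 with the −log10 q limit), nor Gfi1 +17.4 and +24.7 kb under that limit (0.0824 each). The 4 members short of the threshold passed under other settings. These were Gfi1b -19.1 kb (0.000398, −log10 q limit), Gfi1b +39.0 kb (0.00375 with 50% cover, 0.00926 with the limit, 0.0300 with summits within 250 bp, and 0.0265 or 0.0431 without young MEP replicate 1 or aged MPP4 replicate 1), Gfi1 +47.2 kb (0.00851 or 0.00847 without young GMP replicate 2 or aged GMP replicate 1) and Gfi1 +0.28 kb (0.0489, 0.0488 or 0.0251 without young HSC replicate 1 or 4 or young GMP replicate 1), all by the exact test. No member passed for age in calls or height under the settings run, and no member turned direction while passing. Without young HSC replicate 4, 1 member (Gfi1 +17.4 kb) was called in all young and no aged HSC libraries, so that this count ran from 0 to 1. Over all regions, age in HSC gave 108 calls with pileup and 6 with the −log10 q limit, against 0, in MPP1 7 without aged replicate 2 and 1 without young replicate 2, and in MPP3 4 without young replicate 2. The limit also gave 135 aged-only and 94 young-only HSC regions, against 222 and 143. For fraction differences over all regions, centring set the split. Regions higher in GMP than HSC were 44.6% of calls with centring and 92.0% without, those higher in MEP than HSC 60.9% and 0.270%, those higher in GMP than MEP 41.8% and 99.5%, and those higher in MPP4 than HSC 43.3% and 55.7%. Calls went from 1820 to 4809 in MEP minus HSC (961 with the −log10 q limit), from 2833 to 5487 in GMP minus MEP (1447 with the limit), and from 9 to 1 (0 with percentiles or either pair of HSC replicates and 177 with pileup) in MPP1 minus HSC. The other fraction fits moved from 705 to between 272 and 1746 calls in MPP2, from 1695 to between 813 and 4509 in MPP3, from 1956 to between 1095 and 3595 in MPP4, from 7016 to between 4655 and 10154 in GMP and from 2842 to between 1696 and 4851 in CLP, each minus HSC. Leaving out single HSC libraries took the aged-only count to as much as 387 and the young-only count to as much as 463, as fewer calls were then required. Fraction tests on calls over all regions fell from 53130 of 79066 regions to 28976 of 57105 without GMP. The cause of the other shifts was not tested. The replicate block, fitted although the numbers do not pair samples (correlations of -0.08 to 0.18 between same-numbered libraries), gave 0 members for age in both tests and 2 calls in MEP over all regions. A fit of age over all fractions gave no value, because no member was called in all 36 libraries.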
